A study of Mus musculus with 4 samples.

Results

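The genes of the DNA methylation machinery were followed in invariant natural killer T (iNKT) cells, T cells whose receptor sees lipids presented by CD1d, and in CD44-high CD4+ T cells (CD44hi), which are largely antigen-experienced. The set comprised 9 genes of the 22471 gene symbols used, chosen by name: the DNA methyltransferase genes Dnmt1, Dnmt3a and Dnmt3b, their partner Uhrf1, the TET genes Tet1, Tet2 and Tet3, and the methyl-CpG reader genes Mbd1 and Mbd2. The 9 genes and all lists below were chosen with earlier results of these data known. Counts set beside shares of all genes are therefore descriptive. Each of the 9 symbols stood on a single row in every file. Both cell types were sorted from mouse spleen on the C57BL/6 background, from wild-type (WT) animals and from animals of genotype Ezh2fl/fl CD4-Cre (KO), so that 4 libraries gave 4 groups of 1 library each. In KO animals Cre recombinase under Cd4 regulatory elements acts from the CD4+ CD8+ stage of thymic development and is used to remove floxed exons of Ezh2, the methyltransferase of Polycomb repressive complex 2, in T cells. The labels give no age, no number of animals per library and no statement on whether WT animals carried a floxed allele or Cre.

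DNA methylation is the addition of a methyl group to cytosine, in mammals mostly where cytosine is followed by guanine (CpG). DNMT1 restores the mark after replication, and UHRF1 binds hemimethylated CpG and brings DNMT1 there, whereas DNMT3A and DNMT3B can methylate sites that carried no mark. TET proteins oxidise methylated cytosine, which leads to loss of the mark by base excision repair or by dilution over cell divisions. MBD1 and MBD2 bind methylated CpG, MBD2 as part of the NuRD repressor complex. In T cells, DNMT3A and TET2 are known to act on the genes of effector and memory fates.

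RNA abundance was measured as FPKM, fragments scaled to transcript length and to library depth, and in bulk samples fewer cells expressing a gene cannot be told apart from less RNA per cell. Taking WT iNKT as the unit, estimated depth was 1.08 in KO iNKT, and in the CD44hi libraries 3.69 (WT) and 4.90 (KO). Ratios below are plain FPKM ratios each followed by its 95% counting interval (Clopper-Pearson), computed from estimated fragments. These intervals cover counting error only, and since each group was 1 library, differences could not be checked against replicates and carry no test or p-value. A gene was measured in a comparison at 1 FPKM or more in either library, and was called higher or lower at 2-fold on the log2(FPKM + 1) scale, which understates differences of genes with low values.

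The 12 T cell markers found were at 53.1 FPKM or more in all 4 libraries, Trbc1 not being found under that symbol, and the iNKT regulator Zbtb16 was at 28.2 (WT) and 63.1 FPKM (KO) in iNKT cells and 4.30 (WT) and 41.4 FPKM (KO) in CD44hi cells. Ezh2 was at 15.3, 16.8, 28.9 and 18.5 FPKM in the same order. A value over the whole gene does not check a deletion of some exons, so KO means a library labelled KO. The CD44hi libraries also held RNA of other cells, with summed levels of 8 B cell markers of 59.3 (WT) and 86.6 FPKM (KO), of 10 myeloid markers of 287 and 392, of 7 plasmacytoid dendritic cell markers of 136 and 545, and of 7 red cell markers of 194 and 938. In WT iNKT and KO iNKT the B cell sums were 1.55 and 1.72 FPKM and the myeloid sums 21.9 and 14.4, and Pax5 and Ebf1 were listed at 0 in both iNKT libraries. The red cell sums there were 23.3 and 24.5 FPKM. The plasmacytoid dendritic cell sums were 143 and 88.1 FPKM, so the sum of WT CD44hi was not above that of WT iNKT. In WT iNKT, Bst2 was at 101 FPKM and Ccr9 at 41.0, whereas Siglech was at 0, against 11.1 FPKM in WT CD44hi. The Y-linked Eif2s3y was at 22.7 FPKM in WT CD44hi beside 46.8 FPKM of Xist, and was listed at 0 in the other libraries. RNA of male cells in WT CD44hi therefore cannot be told apart from genotype in the CD44hi pair. Nor can it be told apart from cell type between the WT libraries. The CD44hi libraries had 23746 listed rows and the iNKT libraries 23720, and 26 CD44hi rows had symbols turned into dates or numbers. With those rows left out, the same symbols were listed in all libraries. Any batch that separates the iNKT from the CD44hi libraries and the cell type cannot be told apart.

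The order of the 9 genes was much alike in the 4 libraries. Mbd2 was the most abundant at 57.6 to 97.9 FPKM, followed by Dnmt1 at 30.1 to 42.5 and Mbd1 at 20.96 to 28.3, and these ranks held in every library. Dnmt3a had rank 5 throughout, and Tet1 was lowest at 0.636 to 1.297 FPKM. The order changed in KO iNKT, where Uhrf1 had rank 4, above Dnmt3a and Tet3, against rank 7 in WT iNKT and rank 6 in both CD44hi libraries.

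**Figure D1:**
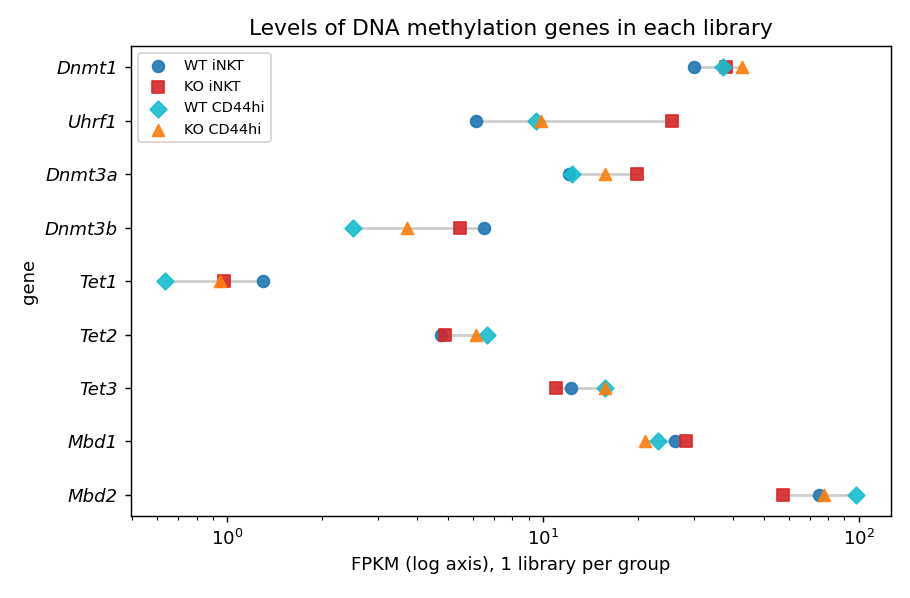
FPKM of the 9 genes (rows) in each of the 4 libraries (symbols), on a log axis, with a line from the lowest to the highest library. Uhrf1 spans the widest range, from 6.14 FPKM in WT iNKT to 25.6 in KO iNKT, and Mbd1 the narrowest.

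Uhrf1 (GRCm38 chromosome 17, 56303321 to 56323486, plus strand) differed most between libraries. It was at 6.14 (WT) and 25.6 FPKM (KO) in iNKT cells and 9.49 (WT) and 9.85 FPKM (KO) in CD44hi cells. KO iNKT stood apart from the other 3 libraries, which lay within 1 doubling of each other. Dnmt1 (chromosome 9, 20907209 to 20959888, minus strand), whose product UHRF1 recruits to replicated DNA, was at 30.1, 38.1, 37.0 and 42.5 FPKM in the same order.

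The start regions of Uhrf1 and of 2 chromatin remodelling partners, Cdca7 and Hells, are shown. These 3 genes were called higher in KO than in WT iNKT and were chosen for display after their values were seen. Lig1, a partner also called higher in that comparison, is not shown. Each is the RefSeq window on GRCm38.p6 from 250 bases before to 50 bases after the annotated start, on the plus strand, at chr17:56303087-56303386, chr2:72475969-72476268 and chr19:38930740-38931039. Capitals mark matches on either strand to TTTNNCGC, a loose form of the binding motif of E2F factors, which drive genes of DNA replication.
Uhrf1: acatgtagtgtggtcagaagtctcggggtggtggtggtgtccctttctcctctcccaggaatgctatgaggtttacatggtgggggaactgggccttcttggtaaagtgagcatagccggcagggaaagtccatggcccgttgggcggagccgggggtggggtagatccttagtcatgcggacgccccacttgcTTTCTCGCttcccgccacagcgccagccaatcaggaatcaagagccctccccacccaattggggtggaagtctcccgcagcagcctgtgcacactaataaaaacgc
Cdca7: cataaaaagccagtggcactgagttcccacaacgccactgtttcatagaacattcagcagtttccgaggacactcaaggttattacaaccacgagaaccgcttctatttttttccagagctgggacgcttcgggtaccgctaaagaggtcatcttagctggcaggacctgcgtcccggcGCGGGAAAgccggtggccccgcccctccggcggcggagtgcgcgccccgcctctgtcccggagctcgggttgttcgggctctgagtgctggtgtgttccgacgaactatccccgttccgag
Hells: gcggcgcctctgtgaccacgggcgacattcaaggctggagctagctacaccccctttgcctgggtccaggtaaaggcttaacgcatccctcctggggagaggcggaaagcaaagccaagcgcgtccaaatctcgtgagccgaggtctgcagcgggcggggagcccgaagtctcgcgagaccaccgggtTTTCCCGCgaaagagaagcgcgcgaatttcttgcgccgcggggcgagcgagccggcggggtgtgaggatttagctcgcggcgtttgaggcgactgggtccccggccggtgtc
Each window held 1 match, which began 56, 71 and 62 bases before the start in Uhrf1, Cdca7 and Hells. A match occurred in 5.26% of 27025 RefSeq windows of this length. The motif holds a CpG, and that share was not matched for CpG content. The windows of Uhrf1, Cdca7 and Hells held 12, 26 and 34 CpG. Because these 3 were chosen after their values were seen, the share is no measure of enrichment among them. Of the 9 genes, 7 matched an entry of the RefSeq table, and of these Dnmt1 held 3 matches, 2 of which overlapped, and Dnmt3a, Dnmt3b, Tet1, Tet2 and Tet3 held 0. The window of Lig1, the partner called higher in KO iNKT but not shown, held 0, so the windows shown do not stand for all partners called. The 7 windows differed in CpG content from 12 CpG in Uhrf1 to 57 in Tet2, against a median of 7 over the 27025 windows. The windows of Dnmt1, Dnmt3a, Tet1, Tet2 and Tet3 lay wholly inside the annotated gene, downstream of its outermost start, so their counts may not be those of other starts of these genes. These matches and counts describe the sequence, and neither binding nor methylation was measured.

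The first comparison, KO against WT iNKT, asks which of these genes differ with the Ezh2 genotype in that lineage. Of the 9 genes, all measured, 1 was called higher and 0 lower, beside 6.08% called higher and 3.33% called lower (9.41% in either direction) of the 10815 genes measured. The gene called was Uhrf1, with a ratio of 4.17 (interval 3.35 to 5.21) and a log2 difference of 1.90; 2.06% of genes measured differed by more. The median log2 difference of the 9 genes was 0.04, against 0.05 over all genes measured. Dnmt3a (chromosome 12, 3806007 to 3914443, plus strand), which methylates sites without a mark, was at 12.1 FPKM in WT and 19.9 in KO, a ratio of 1.65 (1.43 to 1.89). It was within the 2-fold rule and would pass at 1.5-fold. Dnmt1 had a ratio of 1.27 (1.15 to 1.39), and Mbd2 was lower, with a ratio of 0.771 (0.672 to 0.883).

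The remaining genes differed less, or by no more than counting error, in the iNKT pair. Dnmt3b was at 6.48 FPKM in WT and 5.44 in KO, a ratio of 0.840 (0.636 to 1.10). Among the TET genes, the intervals of Tet1 (0.751, 0.541 to 1.03) and Tet2 (1.03, 0.853 to 1.25) included 1, and Tet3 had a ratio of 0.894 (0.7996 to 0.998). Mbd1 had a ratio of 1.08 (0.936 to 1.25).

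Some genes that act with Dnmt1 and Uhrf1 at replicated DNA were also called higher in KO iNKT. Of 6 measured partners, 3 were called higher and 0 lower, with a median log2 difference of 0.74, beside 6.08% called higher and 3.33% called lower of all genes measured and their median of 0.05. Cdca7, which recruits the remodeller HELLS to DNA, was at 4.58 FPKM in WT and 19.6 in KO. Hells was at 5.84 and 13.2 FPKM, and Lig1, the ligase that seals replicated strands and binds UHRF1, at 8.65 and 21.2. Pcna, the replication clamp, was at 128 and 164 FPKM, and Uhrf2, a relative of Uhrf1, at 21.1 and 28.8. Usp7, a deubiquitinase that binds DNMT1 and UHRF1, was level at 34.8 and 33.3 FPKM, and Dnmt3l, a cofactor of DNMT3 enzymes in germ cells, was listed at 0 in all 4 libraries.

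Some cell cycle genes were also called higher in this pair. Of 26 S phase genes, 8 were called higher and 0 lower, with a median log2 difference of 0.78. Of 20 mitosis genes, 3 were called higher and 0 lower, with a median of 0.75. Over all genes measured, 6.08% were called higher and 3.33% lower, with a median of 0.05. The largest log2(FPKM + 1) difference of the S phase list was 1.45 for Chaf1a, a histone chaperone subunit at replication forks (3.55 to 11.5 FPKM). That of the mitosis list was 1.19 for Cdc20, an activator of the anaphase-promoting complex (4.23 to 10.9 FPKM). By plain FPKM ratio the largest were 3.54 for Cdc6 in the S phase list and 2.78 for Aurka in the mitosis list. Cell type markers also differed in this pair. The sum of 7 iNKT markers was 1759 FPKM in WT and 781 in KO, that of 7 follicular helper T cell markers 153 and 474, and that of 7 NK cell markers 663 and 143. The iNKT markers did not move together, with Zbtb16 and Slamf6 called higher and Cxcr6, Il2rb and Tbx21 called lower in KO. Of 6 measured NK cell markers, 5 were called lower and 1, Eomes, higher. Of 6 measured follicular helper markers, 4 were called higher and 0 lower. The part of cell cycling and of these cell states in the Uhrf1 difference was not tested.

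The same question was put to the CD44hi pair, KO against WT. Of 8 genes measured, 0 were called in either direction, beside 2.44% called higher and 1.14% called lower (3.58% in either direction) of 11351 genes. Uhrf1 had a ratio of 1.04 (0.931 to 1.16), and its log2 difference of 0.05 turned to -0.02 when FPKM were rescaled to a common sum. The largest log2 difference was that of Dnmt3b, at 0.43, from 2.50 FPKM in WT to 3.71 in KO, a ratio of 1.49 (1.23 to 1.81). Dnmt3a had a ratio of 1.27 (1.19 to 1.37) and Dnmt1 of 1.15 (1.10 to 1.20). The methyltransferase genes Dnmt1 and Dnmt3a were thus higher in the KO library of both pairs, by less than 2-fold. Of all genes measured, 43.2% (iNKT pair) and 42.9% (CD44hi pair) differed by more than Dnmt1. For Dnmt3a these shares were 18.5% and 24.3%.

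The reader and TET genes showed small differences in the CD44hi pair. Mbd2 (chromosome 18, 70568189 to 70626131, plus strand) went from 97.9 to 77.5 FPKM, a ratio of 0.792 (0.748 to 0.839), close to its ratio in iNKT cells. Mbd1 (chromosome 18, 74267605 to 74282732, plus strand), a reader with both methyl-CpG binding and CXXC domains, went from 23.1 to 20.96 FPKM, a ratio of 0.909 (0.841 to 0.983). Tet3 (chromosome 6, 83362373 to 83459084, minus strand) was at 15.7 FPKM in both libraries, with a ratio of 1.003 (0.957 to 1.05). Tet2 (chromosome 3, 133463679 to 133545139, minus strand) had a ratio of 0.920 (0.849 to 0.998). Tet1 (chromosome 10, 62804570 to 62908996, minus strand) was below 1 FPKM in both libraries and was not counted; it was at 0.636 and 0.949 FPKM, a ratio of 1.49 (1.23 to 1.82).

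Replication partners and cell cycle genes were near level in the CD44hi pair. Of the 6 measured partners, 26 S phase genes and 20 mitosis genes, 0 were called, with median log2 differences of -0.06, -0.0024 and -0.09. Among all genes measured, 3.58% were called in either direction, with a median of 0.01. Sums of red cell and plasmacytoid dendritic cell markers were higher in KO CD44hi, as given above, while the sum of 7 regulatory T cell markers was 435 FPKM in WT and 183 in KO. The part of these cells in the small differences of Dnmt3b, Dnmt3a and Mbd2 was not tested. The difference between the genotype effects, iNKT minus CD44hi on log2(FPKM + 1), was 1.85 for Uhrf1; 2.77% of 10452 genes measured in both pairs had a larger one in size. For Dnmt1, Dnmt3a and Mbd2 it was 0.14, 0.35 and -0.04. None of these differences could be tested.

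**Figure D2:**
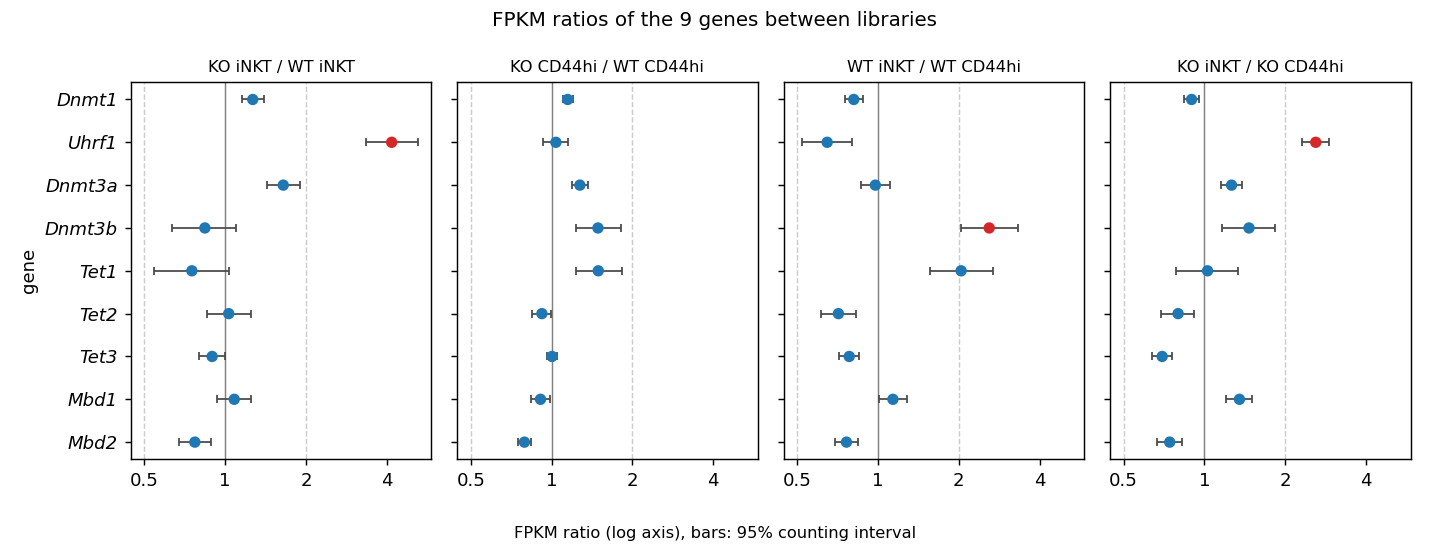
FPKM ratio of each of the 9 genes in the 4 comparisons (panels), on a log axis, with 95% counting intervals as bars, red points for genes called at 2-fold on the log2(FPKM + 1) scale, and dashed lines at ratios of 0.5 and 2. Red points are Uhrf1 at 4.17 (KO against WT iNKT) and 2.60 (KO iNKT against KO CD44hi) and Dnmt3b at 2.59 (WT iNKT against WT CD44hi).

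WT iNKT was compared with WT CD44hi to ask how the cell types differ without the deletion. Of the 9 genes, all measured, 1 was called higher in iNKT and 0 lower, beside 3.64% called higher and 10.9% called lower of 11215 genes. The gene called was Dnmt3b (chromosome 2, 153649450 to 153687730, plus strand), at 6.48 (WT) and 5.44 FPKM (KO) in iNKT cells and 2.50 (WT) and 3.71 FPKM (KO) in CD44hi cells. Both iNKT libraries lay above both CD44hi libraries, and the share of all genes in that order was not computed. The ratio was 2.59 (2.03 to 3.32) between the WT libraries and 1.47 (1.16 to 1.83) between the KO libraries, and 12.5% of genes measured differed by more than Dnmt3b in the WT comparison. Tet1 was at 1.297 FPKM in WT iNKT and 0.636 in WT CD44hi, a ratio of 2.04 (1.56 to 2.67), with a log2 difference of 0.49 that was not called. The estimated fragments behind these Tet1 values numbered 89 and 160. The B cell and myeloid marker sums given above were lower in iNKT cells in both genotypes, and the part of such cells in the Dnmt3b and Tet1 differences was not tested.

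None of the other genes was called between the WT libraries. Uhrf1 had a ratio of 0.647 (0.519 to 0.8003), Tet2 of 0.712 (0.611 to 0.826), Mbd2 of 0.763 (0.690 to 0.843), Tet3 of 0.781 (0.717 to 0.851) and Dnmt1 of 0.812 (0.751 to 0.879). Dnmt3a was level, at 12.1 and 12.4 FPKM, with a ratio of 0.977 (0.861 to 1.11), and Mbd1 had a ratio of 1.14 (1.01 to 1.28). The median log2 difference of the 9 genes was -0.29, against -0.06 over all genes measured.

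KO iNKT was compared with KO CD44hi to ask how the cell types differ under the KO genotype. Of 8 genes measured, 1 was called higher in iNKT and 0 lower, beside 3.02% called higher and 9.06% called lower of 11468 genes. Here the gene called was Uhrf1, with a ratio of 2.60 (2.31 to 2.92), where the WT libraries had a ratio below 1. Tet3 had a ratio of 0.696 (0.639 to 0.757), Mbd2 of 0.743 (0.666 to 0.826) and Tet2 of 0.798 (0.691 to 0.918), each on the same side of 1 as between the WT libraries. Dnmt3a had a ratio of 1.26 (1.15 to 1.39) and Mbd1 of 1.35 (1.21 to 1.51). Dnmt1 was at 38.1 and 42.5 FPKM, a ratio of 0.896 (0.838 to 0.957), and Tet1 at 0.975 and 0.949, a ratio of 1.03 (0.784 to 1.33). Of the cell cycle lists, 5 of 26 S phase and 4 of 20 mitosis genes were called higher in KO iNKT and 0 lower. The 4 comparisons share libraries, so they are not independent of each other.

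Ratios within a library do not depend on how libraries are scaled. Uhrf1 stood at 20.4% (WT) and 67.2% (KO) of Dnmt1 in iNKT cells and at 25.6% (WT) and 23.2% (KO) in CD44hi cells, so that KO iNKT was apart from 3 similar libraries. Dnmt3b stood at 53.6% (WT) and 27.4% (KO) of Dnmt3a in iNKT cells and at 20.2% (WT) and 23.6% (KO) in CD44hi cells. Here WT iNKT was apart. Dnmt3a was higher in KO than in WT iNKT, whereas the interval of the Dnmt3b ratio there (0.840, 0.636 to 1.10) included 1. Tet2 stood at 38.7% to 44.6% of Tet3 in all 4 libraries. These are ratios of FPKM summed over isoforms, with no error between animals.

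**Figure D3:**
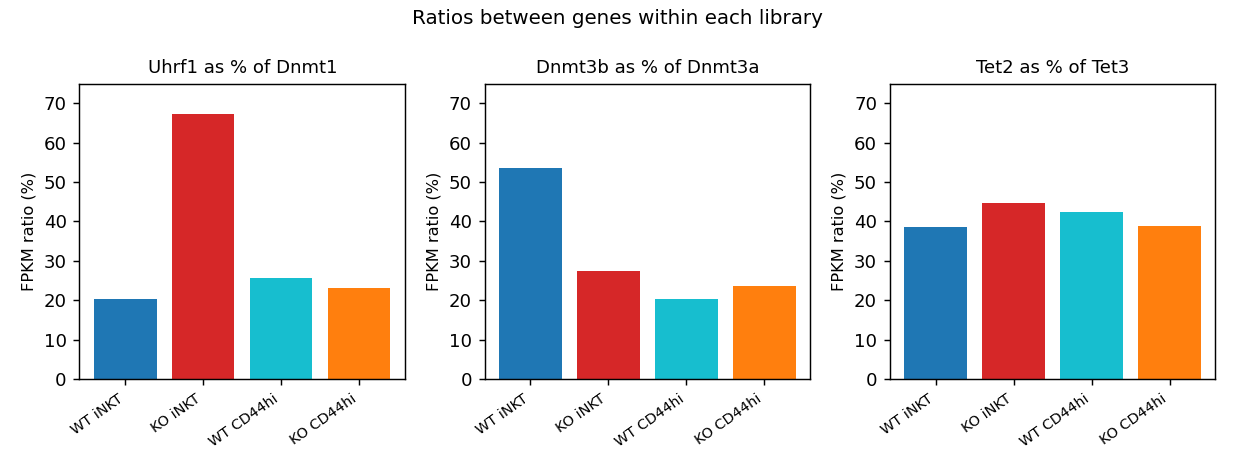
FPKM of one gene as a percentage of another within each library, for Uhrf1 over Dnmt1, Dnmt3b over Dnmt3a and Tet2 over Tet3 (bars from 0, 1 library each). KO iNKT is highest in the first panel at 67.2%, WT iNKT in the second at 53.6%, and the third panel runs from 38.7% to 44.6%.

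Further genes of the pathway were read from lists of readers, CpG binders, demethylation genes and methyl donor genes. Cxxc5, a CXXC zinc finger protein that binds unmethylated CpG and interacts with TET2, was higher in both KO libraries, at 4.59 (WT) and 28.3 FPKM (KO) in iNKT cells and 5.18 (WT) and 19.8 FPKM (KO) in CD44hi cells. Both KO libraries lay above both WT libraries, with ratios of 6.18 and 3.83, and the share of all genes in that order was not computed. It was the 1 gene called higher of the 6 measured CpG binders in each genotype comparison, with 0 called lower. Of all genes measured, 6.08% were called higher and 3.33% lower in the iNKT pair, and 2.44% and 1.14% in the CD44hi pair. Kdm2a, a histone demethylase with a CXXC domain, was at 23.5, 26.9, 31.8 and 34.8 FPKM, and Kmt2a, a histone methyltransferase, at 16.7, 16.0, 35.4 and 31.0 in the same order of libraries. Kmt2a was called lower in WT iNKT than in WT CD44hi.

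None of 15 other methyl-CpG readers, MBD family members and NuRD partners was called in either genotype comparison. Their median log2 differences were 0.11 in iNKT and -0.04 in CD44hi. Of all genes measured, 9.41% (iNKT pair) and 3.58% (CD44hi pair) were called in either direction. Mbd3, an MBD protein of NuRD, was at 42.5 to 53.0 FPKM over the 4 libraries. Gatad2b, a NuRD subunit, was the 1 gene of this list called between the WT libraries, at 12.9 FPKM in iNKT and 26.8 in CD44hi. In that comparison 10.9% of all genes measured were called lower in iNKT.

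Of 13 demethylation and base excision genes, 1 was called higher and 0 lower in KO iNKT, and 0 were called in KO CD44hi. Over all genes measured, 6.08% were called higher in the iNKT pair and 3.58% in either direction in the CD44hi pair, so these counts lay near the background. The gene called was Apex1, the endonuclease that cuts abasic sites, at 7.67 (WT) and 26.0 FPKM (KO) in iNKT cells and 12.6 (WT) and 17.1 FPKM (KO) in CD44hi cells. The list median in the iNKT pair was -0.28, and Gadd45a, a stress gene linked to demethylation, was at 14.0 FPKM in WT and 7.51 in KO. Tdg, the glycosylase that removes oxidised methylcytosine, was at 0.672 to 1.76 FPKM. Idh1, whose product makes the TET cosubstrate 2-oxoglutarate, was at 0.846 FPKM in WT iNKT and 3.90 in WT CD44hi and was called lower there, and Idh2, its mitochondrial relative, was at 13.5 FPKM in KO iNKT and 31.4 in KO CD44hi and was called lower there. Of 8 genes of the S-adenosylmethionine cycle, which supplies the methyl group, 0 were called in any comparison. The shares of all genes called in either direction ran from 3.58% (CD44hi genotype pair) to 14.6% (between the WT libraries). Mat2a, the synthetase gene, was at 49.4, 59.5, 49.6 and 53.0 FPKM in the usual order, and Shmt2, a mitochondrial enzyme of folate metabolism, was the nearest to 2-fold at 24.6 and 48.4 FPKM in the iNKT pair.

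Genes with the most similar profile over the 4 libraries were named by the distance between log2(FPKM + 1) values centred on each gene's mean, among 8246 genes at 5 FPKM or more in a library. For Uhrf1 these were Decr1 (distance 0.18), Ikzf2 (0.20) and Cdca7 (0.24), and 3 genes in all lay within 0.25. For Dnmt3a they were Smarcc1, H1f0 and Psme4, and for Dnmt3b Tbca, Psmg4 and Otud1, with 219 and 45 genes within 0.25. For Dnmt1 they were Mrpl34, Tmem5 and Dis3l, for Tet2 Ebpl, Msl3 and Eif4e2, for Tet3 Aldh4a1, Gpn3 and Phf3, for Mbd1 Dusp11, Mrpl19 and Clcn4-2, and for Mbd2 Epc1, Sp4 and Cbx7. Flat profiles have many such neighbours, 627 for Dnmt1 and 1065 for Tet2, so these names carry little for them, and Tet1 was too low to enter. Over 4 libraries a like profile is a description, and no correlation was computed.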

How the data were processed

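Sorted cells were lysed in TRIzol, and cDNA libraries came from a TruSeq RNA v2 kit, a kit that keeps no strand information, per the labels' protocols. Values are FPKM per gene symbol as deposited by the authors, 1 table for each library, per the file headers. Cufflinks 2.0.2, TopHat 1.3.2, Bowtie2 2.0.0 and mm10 appear in the submitters' processing notes, with no role for each; annotation, filters and strand setting are not given in the sources used here.

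In the present work, 26 symbols turned into dates or numbers in the CD44hi files and 787 small RNA symbols were left out, and rows of 240 repeated symbols were summed. Listed genes missing by name were sought under RefSeq synonyms, which found 4. The fragments behind an FPKM were estimated from the step between low values, over 5046 genes with a single RefSeq transcript of at least 3000 bases in GENCODE M21 (GRCm38). In a transcript of 2 kilobases, 1 fragment was worth 0.102 (WT) and 0.0947 FPKM (KO) for iNKT cells and 0.0277 (WT) and 0.0209 FPKM (KO) for CD44hi cells. Counting intervals used each gene's shortest RefSeq transcript, which gives the widest interval. Exons of Dnmt3a shared 133 of 16642 bases with the antisense Dnmt3aos, and those of Tet2 shared 43 of 16870 with Gm42567; no other gene of the 9 shared exon bases with an annotated gene.

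Comparisons used differences of log2(FPKM + 1), with a pseudocount of 1, and no test, since each group was 1 library. The calling and the depth estimate were tested on counts simulated for the iNKT pair, with counting error only and planted changes larger than the calling rule. That simulation held no variation between animals and does not cover calls near the rule. The 9 genes and all lists were chosen with earlier results of these data known. Named are the 9 genes, Ezh2, list members called or of high mean level, a few others as examples chosen after their values were seen, and the 3 genes nearest in profile. Alternatives were a pseudocount of 0.1, 3 rescalings, other filters and a 1.5-fold rule. Python 3.11.15, pandas 2.3.3, scipy 1.17.1 and matplotlib 3.10.9 were used.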

Additional observations from a re-analysis of the deposited data

Results flagged for a closer look

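Some genes had genotype differences of opposite sign in the 2 cell types, each from 1 library per group, and these differences were not tested. Given as iNKT minus CD44hi, the difference of the genotype effects was -0.65 for Dnmt3b, which was -0.21 in iNKT and 0.43 in CD44hi. It was -0.47 for Tet1 (-0.22 and 0.25), or -0.89 with a pseudocount of 0.1, 0.14 for Tet2 (0.04 and -0.10), -0.15 for Tet3 (-0.15 and 0.0046) and 0.24 for Mbd1 (0.11 and -0.13). For each of these 5 genes the counting interval of the ratio included 1 in at least 1 of the 2 cell types. Among replication partners it was 1.05 for Hells (1.05 and -0.0027) and 1.45 for Lig1 (1.20 and -0.25).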

How the results depend on the processing

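Under the rescalings by median ratio, by upper quartile and to a common sum, with a pseudocount of 0.1, with a 5 FPKM filter and with no filter, the calls of Uhrf1 and Dnmt3b stayed as reported and no further gene of the 9 was called. Over the pseudocounts and rescalings, the log2 difference of Uhrf1 ranged from 1.88 to 2.04 between KO and WT iNKT and from 1.29 to 1.37 between KO iNKT and KO CD44hi, and that of Dnmt3b from 1.10 to 1.34 between the WT libraries. Called at 1.5-fold, 2 of the 9 genes passed in the iNKT pair, with Dnmt3a added. The counts over all genes moved more. In KO against WT iNKT, 1018 genes became 1535 (pseudocount 0.1), 1672 (common sum), 649 (5 FPKM) and 2481 (1.5-fold). In KO against WT CD44hi, 406 became 715, 688, 256 and 1124 under the same 4 settings. In WT iNKT against WT CD44hi, 1632 became 1012 (5 FPKM) and 3289 (1.5-fold), and in KO iNKT against KO CD44hi, 1385 became 2118 (common sum), 821 (5 FPKM) and 3040 (1.5-fold). Of the log2 differences of single genes, 3 changed sign, each close to 0. These were Uhrf1 and Tet3 in the CD44hi genotype pair, to -0.02 and -0.07 at a common sum, and Dnmt3a between the WT libraries, to 0.01 under the upper quartile. Dnmt1 in the CD44hi genotype pair went from 0.19 to 0.13 at a common sum, outside its counting interval. Tet1, the lowest gene, moved most with the pseudocount: at 0.1 its log2 difference was 0.51 in the CD44hi genotype pair (0.25 at 1) and 0.92 between the WT libraries (0.49 at 1, and 0.71 at a common sum). No rescaling moved the median of all genes by 0.1 on the log2 scale. No paired analysis was possible because each group is 1 library. Depth limits Tet1 most, with 72 to 318 estimated fragments per library.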

Other observations

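Summed over Dnmt1, Dnmt3a and Dnmt3b, the level was 48.6 (WT) and 63.4 FPKM (KO) in iNKT cells and 51.9 (WT) and 62.0 FPKM (KO) in CD44hi cells, so that both KO libraries were above both WT libraries. Summed over the TET genes it was 18.3, 16.8, 23.0 and 22.8 FPKM in the same order, with both CD44hi libraries above both iNKT libraries. Dnmt1 and Dnmt3a each had the order of the first sum, but Dnmt3b did not, at 6.48 (WT) and 5.44 FPKM (KO) in iNKT cells. Tet2 and Tet3 each had the order of the second sum, and Tet1 had the opposite order. For Tet1, however, the KO libraries were at 0.975 (iNKT) and 0.949 FPKM (CD44hi). Their ratio of 1.03 (0.784 to 1.33) was within counting error. All 4 libraries enter each statement, neither pattern was tested, and the share of all genes in either order was not computed.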
